A study of Arabis alpina with 12 samples.

Results

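Aatoe2_IL is a line of the perennial Arabis alpina used to study AaTOE2, which encodes a transcription factor related to APETALA2, and the results below concern genes whose response to this genotype differed between V3 buds and main shoot apices. Poly(A) RNA of 12 libraries was counted per gene, in 4 groups of 3, namely Aatoe2_IL V3 buds, wild-type (WT) V3 buds, Aatoe2_IL shoot apices and WT shoot apices. All 12 libraries of the series (12 of 12) entered the comparison. Every plant was of the accession Pajares and had spent 8 weeks in long days and then 8 weeks of vernalization, that is cold, in short days. The study took apices to follow flowering during cold and V3 buds to follow axillary branching. The lesion of Aatoe2_IL and its effect on AaTOE2 transcripts were not analysed here, because no source used here describes the lesion or gives the identifier of AaTOE2. Only 1 such line was sampled, and the labels do not say whether replicates were separate plants or pools. The p-values therefore reflect how far these samples vary, and part of that variation may be technical.

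In Arabidopsis, APETALA2-like factors of the TOE group delay flowering, and their transcripts are targets of a conserved microRNA, whereas SPL transcription factors promote the adult phase and flowering. Axillary buds carry their own meristem and leaf primordia, and whether a bud grows out depends on its vascular connection, its sugar supply and hormones. The design allows the genotype effect of each gene to be compared between bud and apex.

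The measure was the interaction, the log2 fold change of Aatoe2_IL over WT in V3 buds minus the same log2 fold change in shoot apices. A positive value means that the genotype effect was higher in buds, and a value of 1 that the 2 folds differed by a factor of 2. Libraries held between 9411616 and 12309478 reads in genes, and between 13.4% and 21.5% of reads lay outside genes. Levels are CPM, counts scaled to a common total of reads in the tested genes after TMM normalization. They are compared between samples for 1 gene and never between genes, since they are not scaled to gene length. Gene names are those of Arabidopsis orthologues that the authors' deposited tables pair with the identifiers. The identifiers of the meristem and organ boundary markers STM, KNAT1, CLV3, WUS, CUC1, CUC2, CUC3 and LAS are given in no source used here, so the tissue labels could not be checked against these genes.

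Among the named genes, 3 of 4 of nitrogen and ion transport had a higher effect in buds. So did 4 of 7 of vascular tissue and sugar transport. Every name comes from the authors' lists of changed genes, and 11.3% of their 611 tested genes were called higher in buds. Over all gene lists, chosen with earlier results of these data known, the share was 11.2%, so no theme is read from single lists. UFO and KNATM, regulators of flower and organ patterning, had a lower effect in buds, whereas CRC, of the same floral list as UFO, had a higher one. The other 2 named genes of KNATM's list had interactions above 0, though not past the threshold. In total 202 of 19520 genes passed the interaction test (1.03%, edgeR's quasi-likelihood F test, Benjamini-Hochberg adjusted p under 0.05). Of these, 149 had a higher effect in buds (0.763% of the genes tested) and 53 a lower one (0.272%). Absolute interactions lay between 0.56 and 3.78 on the log2 scale in the higher set and between 0.57 and 2.62 in the lower set, and reached 1 in 100 and 33 genes. A name was known for 57 of the 149 and 11 of the 53. Since these are bulk samples, fewer cells of a type and less RNA per cell cannot be told apart in any value below.

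For most of these genes the genotype effect itself passed in buds and not in apices. Aatoe2_IL differed from WT in 967 genes in V3 buds (4.95%) and 215 in shoot apices (1.1%). In the higher set, the genotype effect passed in buds alone in 114 genes, in apices alone in 13, in both tissues in 1 and in neither in 21. In the lower set, it passed in buds alone in 48 genes, in apices alone in 1, in both in 0 and in neither in 4. Over all genes tested it passed in buds alone in 4.55%, in apices alone in 0.697%, in both in 0.405% and in neither in 94.3%. None of the 202 changed in opposite directions past the threshold in both tissues, although the fitted effects had opposite signs in 125 of 149 and 49 of 53 genes, against 45.4% of all genes tested. Median log2 fold changes in the higher set were 0.93 in buds and -0.25 in apices, and in the lower set -0.82 in buds and 0.33 in apices. Medians over all genes tested were -0.01 in buds and 0.00 in apices (log2). The genes were called on the effect in buds minus that in apices, which itself favours opposite signs and medians. These shares, signs and medians therefore describe the selection and test nothing.

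**Figure D1:**
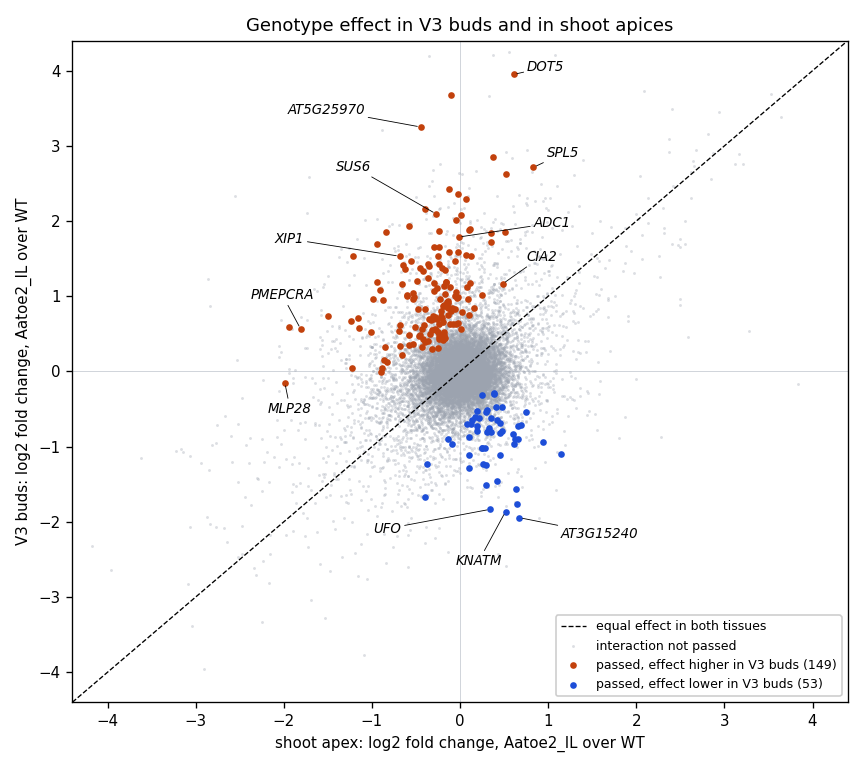
Each point is 1 gene, with the fitted log2 fold change of Aatoe2_IL over WT in shoot apices on the x axis and in V3 buds on the y axis, both linear. Orange points are the 149 genes with a higher effect in buds, blue points the 53 with a lower one, and grey points the other genes tested, 15 of which lie outside the axes. Orange points lie above the dashed line of equal effects and blue points below it, with 114 of the 149 and 48 of the 53 past the threshold for the genotype effect in buds alone.

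Seen from the 4 groups, WT buds stood apart most often. For each gene the group was found whose mean (log2 CPM) lay farthest from the mean of the other 3. In the higher set this was Aatoe2_IL buds, above the rest, in 33 of 149 genes (22.1%, against 11% of all genes tested), and WT buds, below the rest, in 90 (60.4% against 15.7%). It was Aatoe2_IL apices, below the rest, in 4 (2.68% against 9.46%) and WT apices, above the rest, in 22 (14.8% against 14.6%). In the lower set Aatoe2_IL buds lay below the rest in 15 of 53 genes (28.3% against 10.9%), and WT buds above the rest in 33 (62.3% against 14.9%). Aatoe2_IL apices lay above the rest in 1 gene (1.89% against 8.83%) and WT apices below the rest in 4 (7.55% against 14.6%). Written as a difference between tissues, 59 of 149 genes of the higher set had a lower mean in buds than in apices in Aatoe2_IL, and 141 of 149 did so in WT. In the lower set the numbers were 41 of 53 in Aatoe2_IL and 5 of 53 in WT, and over all genes tested 51.9% in Aatoe2_IL and 49.4% in WT. These counts use the same 4 means as the interaction and describe it without testing it. In most called genes a bud to apex contrast of WT was thus smaller in Aatoe2_IL or ran the other way.

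**Figure D2:**
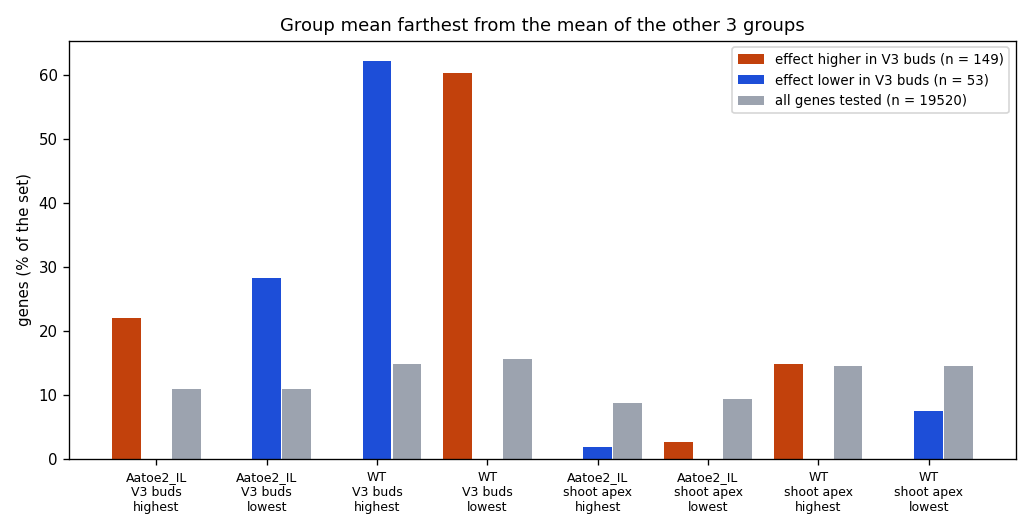
Bars give the share of genes (%, y axis from 0) for which the named group mean (log2 CPM) lay farthest from the mean of the other 3 groups, above it (highest) or below it (lowest). Orange bars are the 149 genes with a higher effect in buds, blue bars the 53 with a lower effect and grey bars all 19520 genes tested. WT V3 buds lowest held 60.4% of the orange set and WT V3 buds highest 62.3% of the blue set.

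A bud and an apex library of each genotype carried each replicate number. The difference between buds and apex of the same number did not overlap between genotypes in 149 of 149 genes of the higher set, against 14.9% of all genes tested, and in 53 of 53 genes of the lower set, against 13.6% (28.4% of all genes in either direction). The genes were called on these same differences, so this describes the selection and tests nothing. Deviations from the group means correlated between the bud and the apex library of the same number at 0.42, 0.32 and 0.24 in Aatoe2_IL (replicates 1, 2 and 3, across genes) and at 0.36, 0.06 and 0.25 in WT. Pairs with different numbers lay between -0.34 and 0.14, and WT replicate 2 alone lay within that range. Deviations cancel within a group, so a high value for the same number itself pushes the others down. The range is thus no independent baseline and does not settle which numbers are pairs. When the number entered the fit as a block inside each genotype, 1986 genes passed (10.2%), 1179 of them higher (6.04%) and 807 lower in buds (4.13%), and all 202 genes above were among them. With the block, and without WT replicate 2 in both tissues, a setting chosen after seeing the data, 871 genes passed, including 199 of the 202. Of the 611 tested genes on the authors' lists, from which all names come, the block called 35.5% higher and 10.8% lower in buds. List counts with the block are to be set beside these shares. Values below are from the fit without the block unless the block is named.

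Nitrogen and ion transport supplied the gene with the smallest p. ADC1 (Aa_G543430h1), an arginine decarboxylase that starts putrescine synthesis, had 52.7, 56.5 and 67.6 CPM in Aatoe2_IL buds (replicates 1, 2 and 3), against 18.7, 15.2 and 17.3 CPM in WT buds. In apices it had 30.0, 41.9 and 32.9 CPM in Aatoe2_IL and 35.3, 35.8 and 34.9 CPM in WT. All Aatoe2_IL buds were higher than all WT buds, whereas the genotypes overlapped in apices. Its interaction was 1.81 (SE 0.19, edgeR adjusted p = 0.00193), from log2 fold changes of 1.79 in buds and -0.02 in apices. In Aatoe2_IL the level was higher in buds than in apices for each replicate number, and in WT lower for each.

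CLC-A (Aa_G229820h1), which encodes a nitrate and proton exchanger of the vacuole membrane, had the same pattern. It stood at 52.1, 41.9 and 51 CPM in Aatoe2_IL buds and 18, 16.3 and 13.9 CPM in WT buds. In apices its values were 34.9, 23.9 and 27.1 CPM in Aatoe2_IL and 31.1, 33.4 and 29.9 CPM in WT. Aatoe2_IL over WT came to a log2 fold change of 1.58 in buds and -0.13 in apices, an interaction of 1.72 (SE 0.20, edgeR adjusted p = 0.00254). The genotypes did not overlap in buds and overlapped in apices. CNGC4 (Aa_G516250h1), a cyclic nucleotide-gated ion channel with a role in Arabidopsis defence, had 14.9, 12.1 and 18.1 CPM in Aatoe2_IL buds and 5.85, 3.33 and 5.1 CPM in WT buds. Its apices held 16.8, 21.2 and 15.1 CPM in Aatoe2_IL and 22.2, 20.7 and 22.6 CPM in WT. Log2 fold changes of 1.65 in buds and -0.30 in apices gave an interaction of 1.96 (SE 0.28, edgeR adjusted p = 0.00587). WT buds were the low group, and the other 3 groups lay closer together.

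Of the 4 members of the nitrogen and ion transport list with a name, 3 had a higher effect in buds and 0 a lower one past the threshold. The list's median interaction was 1.76, beside 0.62 over the 611 tested genes on the authors' lists and 0.00 over all genes tested. With the block all 4 passed with a higher effect in buds, beside 35.5% of those 611 genes. The fourth, the nitrate reductase gene NIA1, averaged 184 ± 89 CPM in Aatoe2_IL buds and 63.5 ± 3.3 CPM in WT buds, and 107 ± 32 CPM in Aatoe2_IL apices and 57.3 ± 3.23 CPM in WT apices (SD, n = 3 each). Its interaction was 0.64 (edgeR adjusted p = 0.508) and passed only with the block (edgeR adjusted p = 0.0151). Names exist only for genes that the authors listed on these samples, so no list count here is independent evidence of a direction. Of all 611 tested genes on the authors' lists, 11.3% were called higher and 2.78% lower in buds.

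Of the 7 named genes of vascular tissue and sugar transport, 4 passed, all of them higher in buds. Their share stands beside 11.3% called higher among the 611 tested genes on the authors' lists. The median interaction of the 7 was 2.20, beside 0.62 over those 611 genes. With the block 5 of the 7 passed with a higher effect in buds, beside 35.5% of those 611 genes. XIP1 (Aa_G17360h1) encodes a receptor kinase without which xylem cells appear within the phloem in Arabidopsis. Its level was 8.28, 6.63 and 7.87 CPM in Aatoe2_IL buds and 2.52, 3.43 and 1.9 CPM in WT buds, and 14.8, 14.9 and 12.9 CPM in Aatoe2_IL apices, against 19, 25.8 and 23.8 CPM in WT apices. The genotypes overlapped in neither tissue, and the order turned round, with Aatoe2_IL above WT in buds and below WT in apices. The genotype effect in apices did not pass (edgeR adjusted p = 0.0663). An interaction of 2.22 (SE 0.27, edgeR adjusted p = 0.00275) followed from log2 fold changes of 1.53 in buds and -0.69 in apices.

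SUS6 (Aa_G303450h1), a sucrose synthase gene, had 4.84, 4.07 and 4.7 CPM in Aatoe2_IL buds and 0.908, 1.25 and 1.0 CPM in WT buds. In apices it had 7.39, 9.99 and 11 CPM in Aatoe2_IL and 11.5, 10.4 and 12.4 CPM in WT. All 3 WT buds lay below every other library, with 31 counts in all. The fitted log2 fold change was 2.1 in buds and -0.27 in apices, which gives an interaction of 2.37 (SE 0.31, edgeR adjusted p = 0.00357).

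SEOR1 and SEOA encode proteins of the filaments found in sieve elements, the conducting cells of the phloem. SEOR1 (Aa_G451650h1) had 16.2, 11.1 and 16 CPM in Aatoe2_IL buds and 7.56, 3.23 and 4.7 CPM in WT buds, and 24.8, 23.2 and 16.1 CPM in Aatoe2_IL apices, against 28.9, 32.7 and 33.1 CPM in WT apices. The order of the genotypes turned round between tissues with no overlap in either, though the apex effect did not pass (edgeR adjusted p = 0.213). The interaction of SEOR1 was 2.04 (SE 0.33, edgeR adjusted p = 0.0143), from log2 fold changes of 1.47 in buds and -0.56 in apices. SEOA (Aa_G451660h1) followed the same order, with 20.9, 13 and 18.9 CPM in Aatoe2_IL buds and 9.48, 6.97 and 3.9 CPM in WT buds, and with 28, 35.1 and 19.9 CPM in Aatoe2_IL apices and 45, 41.1 and 41.6 CPM in WT apices. Aatoe2_IL over WT came to a log2 fold change of 1.37 in buds and -0.62 in apices, an interaction of 1.99 (SE 0.36, edgeR adjusted p = 0.0204). The apex effect of SEOA did not pass either (edgeR adjusted p = 0.194). The 2 genes are close relatives, so reads may have been split between them, and the 2 results are uncertain in that respect and may not be independent.

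The other named members of that list did not pass. SWEET13, a sucrose transporter gene, had an interaction of 2.20 (edgeR adjusted p = 0.106, with the block 0.00862). PP2-A1, a phloem lectin gene, had 2.71 (edgeR adjusted p = 0.424) and SWEET12 had 0.99 (edgeR adjusted p = 0.840). PP2-A1 had 8 counts in Aatoe2_IL buds and 5 in WT buds, and SWEET12 had 3 and 14. Leaving out 1 library moved PP2-A1 between 0.48 and 4.23 (lowest without Aatoe2_IL bud replicate 3, highest without WT bud replicate 1, and over 1.5-fold also without Aatoe2_IL apex replicate 1 or bud replicate 2) and SWEET12 between 0.09 and 2.74. Without WT bud replicate 1 SWEET13 passed, at 3.37 (edgeR adjusted p = 0.0135). Of the 9 phloem markers, 3 had a name (SEOR1, PP2-A1 and SWEET12), none of them at 0 in a whole group. Their summed level ranged between 11.1 and 16.9 CPM in Aatoe2_IL buds, 3.75 and 8.57 in WT buds, 16.5 and 27.4 in Aatoe2_IL apices and 37.2 and 43.3 in WT apices. Most of this sum was SEOR1 itself, so it is no separate measure of phloem. PP2-A1 averaged 0.291 CPM in Aatoe2_IL buds and 0.169 in WT buds, while SWEET12 ran the other way, with 0.109 CPM in Aatoe2_IL buds and 0.474 in WT buds. The part of phloem content in the results on these genes was not tested.

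**Figure D3:**
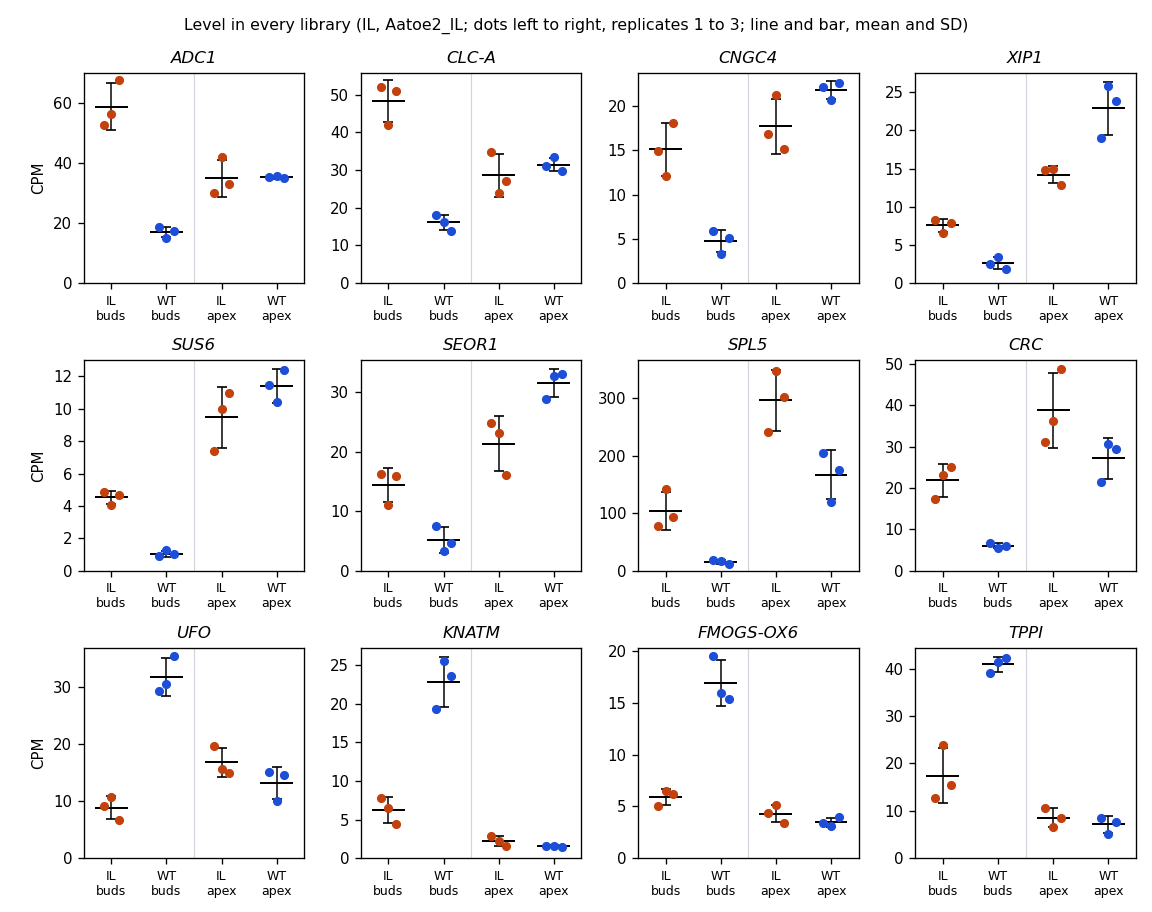
CPM (linear y axis from 0, its own range per gene) of 12 genes in each library, with Aatoe2_IL (IL, orange) left of WT (blue) for V3 buds and then for apices. Dots are replicates 1, 2 and 3 in order, lines group means and bars 1 SD (n = 3). In the first 8 genes all 3 Aatoe2_IL buds lie above all 3 WT buds, and in UFO, KNATM, FMOGS-OX6 and TPPI all lie below, while most apex groups are closer together.

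Among the flowering genes, SPL5 (Aa_G1050h1), an SPL factor that promotes flowering, rose in Aatoe2_IL buds, while its genotype effect in apices did not pass (edgeR adjusted p = 0.092). It had 77.3, 142 and 93.3 CPM in Aatoe2_IL buds and 19, 16.7 and 12 CPM in WT buds, and 241.5, 347 and 302 CPM in Aatoe2_IL apices, against 204, 120.4 and 175 CPM in WT apices. Log2 fold changes of 2.71 in buds and 0.83 in apices gave an interaction of 1.88 (SE 0.34, edgeR adjusted p = 0.0204). Aatoe2_IL lay above WT without overlap in both tissues. Of the 4 SPL genes with a name, SPL5 alone passed (3 with the block), and all 4 interactions were above 0 with a median of 1.58. Among the 611 tested genes on the authors' lists, 384 interactions were above 0, with a median of 0.62. The block called 35.5% of these 611 genes higher in buds. SPL3, with few reads in WT buds, had an interaction of 2.20 (edgeR adjusted p = 0.0872, with the block 0.0157), SPL4 had 1.27 (0.139, with the block 0.00592, and 1.92 and 0.0197 without WT bud replicate 1) and SPL10 had 0.38 (0.457, with the block 0.123).

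CRC (Aa_G690520h1), a gene of carpel and nectary development, likewise rose in Aatoe2_IL buds and not past the threshold in apices (edgeR adjusted p = 0.175). Its values were 17, 23.2 and 25 CPM in Aatoe2_IL buds and 6.76, 5.52 and 5.9 CPM in WT buds, and 31.1, 36.3 and 48.8 CPM in Aatoe2_IL apices, against 21.4, 30.6 and 29.5 CPM in WT apices. An interaction of 1.34 (SE 0.28, edgeR adjusted p = 0.0342) followed from log2 fold changes of 1.85 in buds and 0.51 in apices. WT buds were the lowest group, and the genotypes overlapped in neither tissue. The anther and carpel list held 13 markers, 2 of them with a name (CRC and SHP2), none at 0 in a whole group. Their summed level lay between 17.9 and 25.6 CPM in Aatoe2_IL buds, 5.83 and 6.96 in WT buds, 32.2 and 50.4 in Aatoe2_IL apices and 21.5 and 30.7 in WT apices, and the part of such tissue was not tested.

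UFO (Aa_G355720h1), an F-box protein that acts with LEAFY in flower patterning, ran the other way. It had 9.14, 10.7 and 6.78 CPM in Aatoe2_IL buds and 29.3, 30.5 and 35.5 CPM in WT buds. In apices it had 19.6, 15.7 and 14.9 CPM in Aatoe2_IL and 15.1, 10 and 14.6 CPM in WT, and the genotypes overlapped there. The fitted log2 fold change was -1.83 in buds and 0.34 in apices, which gives an interaction of -2.18 (SE 0.26, edgeR adjusted p = 0.00254). In Aatoe2_IL the gene was lower in buds than in apices for each replicate number, and in WT higher for each. Of the 5 named genes of floral identity, CRC (higher in buds) and UFO (lower in buds) passed, and with the block 2 higher and 1 lower, and the list median was -1.61. AGL6, a MADS-box gene, had an interaction of 4.76 (edgeR adjusted p = 0.0666, with the block 9.11e-05), but WT buds held 3 counts in all and the value lay between 4.22 and 8.03 with 1 library left out (highest without WT bud replicate 1), so its size is uncertain. It passed without Aatoe2_IL apex replicate 1 (4.36, edgeR adjusted p = 0.0441). SHP2, a MADS-box gene of carpels, had -1.61 (edgeR adjusted p = 0.462). For AP1, with 1 count in Aatoe2_IL buds and 2 in WT buds, the interaction of -2.34 cannot be read as a size. The 2 named repressor and vernalization genes did not pass, with TOE3, another APETALA2-like gene, at 1.14 (edgeR adjusted p = 0.215, with the block 0.0246) and VIN3 at 0.70 (edgeR adjusted p = 0.642).

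KNATM (Aa_G777300h1), a KNOX protein without a homeodomain, had the third lowest interaction of the 202 genes. Its level was 7.74, 6.54 and 4.48 CPM in Aatoe2_IL buds and 19.3, 25.6 and 24 CPM in WT buds, and 2.87, 2.24 and 1.62 CPM in Aatoe2_IL apices, against 1.64, 1.64 and 1.44 CPM in WT apices. Its interaction was -2.38 (SE 0.36, edgeR adjusted p = 0.00811), from log2 fold changes of -1.86 in buds and 0.52 in apices. In both genotypes buds were above apices, by between 1.37 and 1.47 on the log2 scale in Aatoe2_IL and between 3.41 and 3.87 in WT. Of the 3 named genes of the meristem and organ boundary list, KNATM alone passed, and AS2 as well with the block. AS2, a leaf polarity gene, had 0.84 (edgeR adjusted p = 0.171, with the block 0.0404), and LSH9 had 2.17 (edgeR adjusted p = 0.342).

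BLH2 (Aa_G363150h1), a BEL1-like homeodomain factor that restricts KNOX genes in Arabidopsis leaves, had a higher effect in buds, unlike KNATM. A link between these genes was not tested. BLH2 had 8.82, 9.09 and 15 CPM in Aatoe2_IL buds and 4.44, 3.75 and 4.1 CPM in WT buds, and 7.56, 6.01 and 7.05 CPM in Aatoe2_IL apices, against 11, 11.1 and 10.2 CPM in WT apices. Aatoe2_IL over WT came to a log2 fold change of 1.41 in buds and -0.65 in apices, an interaction of 2.06 (SE 0.29, edgeR adjusted p = 0.00587). Aatoe2_IL lay above WT in buds and below it in apices, without overlap, though the apex effect did not pass (edgeR adjusted p = 0.136). The 3 TCP genes with a name that were tested all passed, an observation made after their values were seen. Of the 611 tested genes on the authors' lists, from which all names come, 11.3% were called higher in buds. They are CIN-type TCP factors, which restrain leaf growth in Arabidopsis and share a microRNA regulator there. TCP4 averaged 43.9 ± 11 CPM in Aatoe2_IL buds and 19.4 ± 4.04 CPM in WT buds, and 16.6 ± 3.58 CPM in Aatoe2_IL apices and 20.4 ± 2.91 CPM in WT apices (SD, n = 3 each). Its interaction was 1.47 (SE 0.29, edgeR adjusted p = 0.0289). The interactions of tcp10 (1.34, edgeR adjusted p = 0.0295) and TCP24 (1.07, edgeR adjusted p = 0.0327) were smaller. For all 3 the genotype effect passed in buds and not in apices. Without each library in turn, TCP4 and tcp10 each kept their interaction call in 5 of 12 fits and TCP24 in 4.

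TPPI (Aa_G458480h1), a trehalose-6-phosphate phosphatase of the branching and bud dormancy list, fell in Aatoe2_IL buds. It had 12.8, 23.9 and 15.4 CPM in Aatoe2_IL buds and 39, 41.4 and 42.2 CPM in WT buds, and 10.6, 6.52 and 8.47 CPM in Aatoe2_IL apices, against 8.58, 5.19 and 7.61 CPM in WT apices. Log2 fold changes of -1.23 in buds and 0.26 in apices gave an interaction of -1.49 (SE 0.33, edgeR adjusted p = 0.0446). It was the only one of 6 named members of that list to pass, and with the block a further 1 passed with a higher effect in buds. DRM2, a dormancy-associated gene, had an interaction of 0.52 (edgeR adjusted p = 0.652) and the homeobox gene HB53 one of -1.52 (edgeR adjusted p = 0.220). XTH15 (Aa_G191150h1), a xyloglucan endotransglucosylase of the cell wall, was the member of the light and shade list to pass, 1 of 4 (2 with the block). Its values were 34.7, 36 and 36.9 CPM in Aatoe2_IL buds and 8.07, 12.2 and 16.7 CPM in WT buds, and 80.3, 94.9 and 83.8 CPM in Aatoe2_IL apices, against 53.6, 90.6 and 93 CPM in WT apices. An interaction of 1.41 (SE 0.30, edgeR adjusted p = 0.0418) followed from log2 fold changes of 1.54 in buds and 0.13 in apices. PIL6, a phytochrome-interacting factor, had 1.32 (edgeR adjusted p = 0.0675, with the block 0.00783, and passed at 1.49 and 1.48 without Aatoe2_IL apex replicate 1 or bud replicate 2), and PIL1, a shade marker, had -0.28 (edgeR adjusted p = 0.898).

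FMOGS-OX6 (Aa_G261880h1), which oxidizes the side chain of aliphatic glucosinolates, was the member of the glucosinolate list to pass, 1 of 14 tested. It had 5.05, 6.44 and 6.23 CPM in Aatoe2_IL buds and 19.5, 15.9 and 15.4 CPM in WT buds, and 4.35, 5.1 and 3.43 CPM in Aatoe2_IL apices, against 3.36, 3.11 and 3.97 CPM in WT apices. The fitted log2 fold change was -1.52 in buds and 0.30 in apices, which gives an interaction of -1.81 (SE 0.28, edgeR adjusted p = 0.00897). Over the 14 members the median genotype effect was -2.20 in buds and -2.28 in apices (log2), and with the block 5 members were called higher and 1 lower in buds. The block called 35.5% higher and 10.8% lower of the 611 tested genes on the authors' lists. CYP83B1 and SUR1, the members with the highest levels among those that did not pass, had interactions of 0.55 (edgeR adjusted p = 0.662, with the block 0.00712) and 0.60 (edgeR adjusted p = 0.460, with the block 0.00492).

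2 further genes with a higher effect in buds act in metabolism or defence. ALDH11A3 (Aa_G641110h1), a non-phosphorylating glyceraldehyde-3-phosphate dehydrogenase, had 53.3, 49.3 and 78.7 CPM in Aatoe2_IL buds and 26.8, 21.1 and 21.6 CPM in WT buds. Apices held 34, 36.1 and 38.4 CPM in Aatoe2_IL and 36.8, 46.1 and 42.6 CPM in WT, with overlap. Its interaction was 1.59 (SE 0.23, edgeR adjusted p = 0.00587), from log2 fold changes of 1.38 in buds and -0.21 in apices. EPS1 (Aa_G165900h1), a gene of salicylic acid synthesis, had 10.2, 11.2 and 10.6 CPM in Aatoe2_IL buds and 5.45, 5.41 and 4.7 CPM in WT buds. Its apices, where Aatoe2_IL lay below WT without overlap, held 13.1, 14.4 and 13.2 CPM in Aatoe2_IL and 15.2, 22.5 and 21.5 CPM in WT. Aatoe2_IL over WT came to a log2 fold change of 1.04 in buds and -0.54 in apices, an interaction of 1.58 (SE 0.23, edgeR adjusted p = 0.0065). The effect in apices did not pass (edgeR adjusted p = 0.102).

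5 further named genes had a lower effect in buds. AT3G15240 (Aa_G1060h1), known here by its Arabidopsis locus code, had the lowest interaction of all 202 genes. It had 4.73, 8.24 and 7.54 CPM in Aatoe2_IL buds and 22.2, 25.9 and 31.2 CPM in WT buds, and 5.39, 9.38 and 13.3 CPM in Aatoe2_IL apices, against 7.26, 3.98 and 6.25 CPM in WT apices. Log2 fold changes of -1.95 in buds and 0.67 in apices gave an interaction of -2.62 (SE 0.42, edgeR adjusted p = 0.0138). AT1G23000 (Aa_G653380h1) had 39.5, 48.2 and 36.4 CPM in Aatoe2_IL buds and 64.7, 93.4 and 94.7 CPM in WT buds, and 62.5, 63.3 and 69.2 CPM in Aatoe2_IL apices, against 56.4, 48.1 and 60.3 CPM in WT apices. An interaction of -1.27 (SE 0.21, edgeR adjusted p = 0.0138) followed from log2 fold changes of -1.02 in buds and 0.24 in apices. Neither tissue showed overlap, with Aatoe2_IL lower in buds and higher in apices, though the apex effect did not pass (edgeR adjusted p = 0.424).

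WRKY13 (Aa_G472620h1) is a transcription factor with a role in stem development in Arabidopsis. It had 18.1, 15.7 and 18.6 CPM in Aatoe2_IL buds and 29.7, 37.5 and 45.4 CPM in WT buds, and 29.5, 24 and 29.8 CPM in Aatoe2_IL apices, against 24, 23.2 and 30.4 CPM in WT apices. The fitted log2 fold change was -1.11 in buds and 0.10 in apices, which gives an interaction of -1.21 (SE 0.22, edgeR adjusted p = 0.021). Aatoe2_IL buds were the lowest group and WT buds the highest. DUF2 (Aa_G249890h1), a protein with a domain of unknown function, had 3.01, 3.6 and 3.06 CPM in Aatoe2_IL buds and 7.36, 7.7 and 8.61 CPM in WT buds, and 5.04, 6.22 and 5.43 CPM in Aatoe2_IL apices, against 6.09, 4.84 and 4.56 CPM in WT apices. Its interaction was -1.39 (SE 0.27, edgeR adjusted p = 0.0289), from log2 fold changes of -1.29 in buds and 0.10 in apices. USPL1 (Aa_G95970h1), named for an unknown seed protein, showed no overlap in either tissue. It had 9.36, 12.4 and 7.76 CPM in Aatoe2_IL buds and 16.5, 20.7 and 26.8 CPM in WT buds, and 10.3, 7.75 and 6.86 CPM in Aatoe2_IL apices, against 5.77, 6.14 and 6.42 CPM in WT apices. Aatoe2_IL over WT came to a log2 fold change of -1.11 in buds and 0.45 in apices, an interaction of -1.56 (SE 0.31, edgeR adjusted p = 0.029). The effect in apices did not pass (edgeR adjusted p = 0.347).

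**Figure D4:**
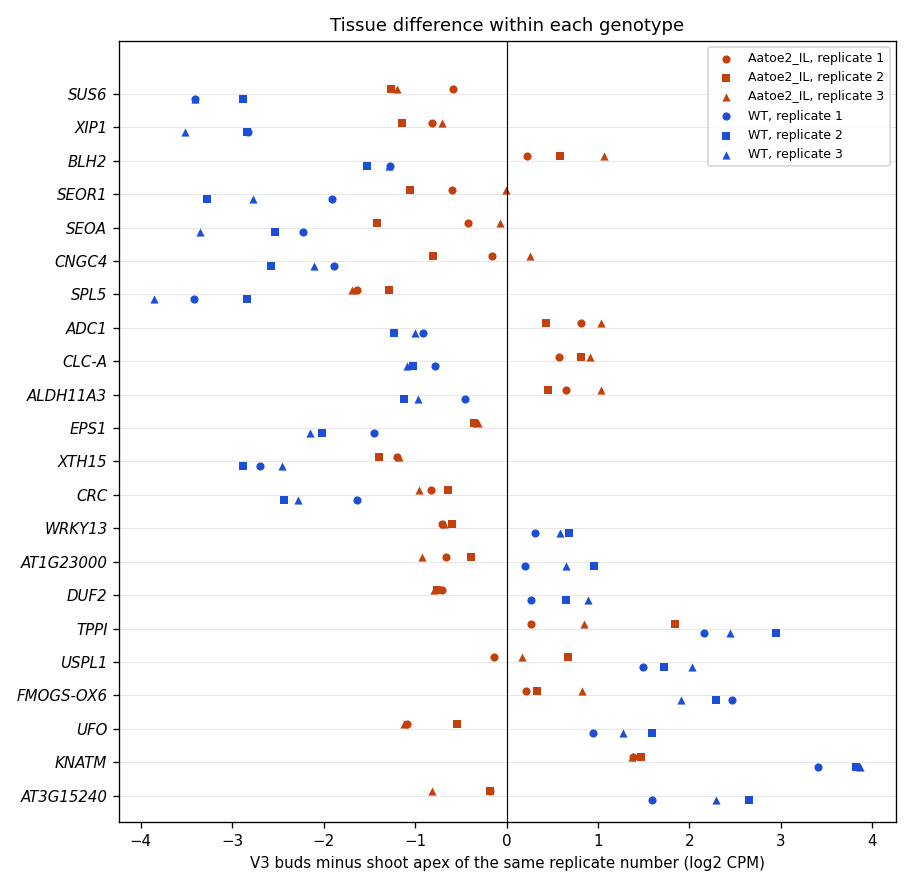
For the 22 genes given above with the value of every library, the x axis is the log2 CPM in V3 buds minus that in the apex of the same replicate number. Orange symbols are Aatoe2_IL and blue symbols WT, with circles, squares and triangles for replicates 1, 2 and 3, and genes run in the order of their interaction. For every gene shown the 3 orange symbols lie wholly on one side of the 3 blue ones, to the right in SUS6 and 12 others and to the left in AT3G15240 and 8 others.

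In all 22 of these genes Aatoe2_IL and WT buds did not overlap, against 22.1% of all genes tested, and in 9 of them apices did not overlap either, against 20.8%. The 22 were picked from genes past the interaction threshold, so nothing is read from these shares. The genotype effect passed in buds in all 22 and in apices in 0, where the lowest edgeR adjusted p was 0.0663. With the block all 22 passed, with edgeR adjusted p between 2.08e-06 and 0.00642. Without each library in turn 14 of the 22 passed every time, with edgeR adjusted p up to 0.0488. The others were SPL5, SEOA, WRKY13, DUF2, USPL1, CRC, XTH15 and TPPI. SPL5 lost its call without WT apex replicate 3, WT bud replicate 2 or Aatoe2_IL apex replicate 3, with an interaction between 1.59 and 2.07 over the 12 fits and edgeR adjusted p up to 0.0615. SEOA lost it without WT apex replicate 2 or 3, WT bud replicate 2, Aatoe2_IL apex replicate 3 or Aatoe2_IL bud replicate 1 or 3, with values between 1.71 and 2.31 and edgeR adjusted p up to 0.0615. WRKY13 lost it without WT apex replicate 2, WT bud replicate 2, Aatoe2_IL apex replicate 3 or Aatoe2_IL bud replicate 1 or 3, with values between -1.35 and -1.05 and edgeR adjusted p up to 0.0715.

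The remaining 5 kept their call in few of the 12 fits. DUF2 and CRC kept it in 4, USPL1 and TPPI in 3 and XTH15 in 2. XTH15 kept it without WT apex replicate 1 or WT bud replicate 3, and lost it without each of the other 10 libraries, with values between 1.18 and 1.7. TPPI kept it without WT apex replicate 1, Aatoe2_IL apex replicate 2 or Aatoe2_IL bud replicate 2 (values between -1.8 and -1.30), USPL1 without WT apex replicate 1, WT bud replicate 1 or Aatoe2_IL bud replicate 2 (-1.77 and -1.36). DUF2 kept it without WT apex replicate 1, WT bud replicate 1, Aatoe2_IL apex replicate 1 or Aatoe2_IL bud replicate 2 (-1.52 and -1.30). CRC kept it without WT apex replicate 1, WT bud replicate 1, Aatoe2_IL apex replicate 3 or Aatoe2_IL bud replicate 1 (1.2 and 1.54). All these values kept their direction, which the selection of called genes on the same libraries favours.

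A further 45 genes with a name passed, 43 higher and 2 lower in buds, and those given below were chosen after their values were seen. With the block all 45 passed, with edgeR adjusted p up to 0.0122, and 3 were called in each of the 12 fits that leave out 1 library, namely KT2/3, ZIP1 and AT1G78260. Several carry ions or metabolites. KT2/3, a potassium channel gene, had an interaction of 2.56 (edgeR adjusted p = 0.00811), the zinc transporter gene ZIP1 2.69 (0.0138) and the channel gene CNGC3, a relative of CNGC4, 2.55 (0.0204). The ABC transporter genes ABCC10 and ABCC13 had 1.60 and 1.75 (log2). MSL9, a mechanosensitive channel gene, was one of the 2 with a lower effect, at -2.41 (edgeR adjusted p = 0.0446), and BEN1, which acts in brassinosteroid metabolism, was the other, at -1.27 (0.0468).

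Other genes with a higher effect in buds, picked after their values were seen, are known from vascular tissue in Arabidopsis. No theme is read from these picks. ACL5, a thermospermine synthase of xylem differentiation, had an interaction of 1.61 and averaged 12.8 ± 3.1 CPM in Aatoe2_IL buds and 4.25 ± 1.02 CPM in WT buds (SD, n = 3 each). The receptor kinase gene BRL2 had 1.78 and DOT5, a zinc finger gene of leaf venation, 3.34, with 4 counts in WT buds. FTIP1, which helps the florigen FT leave companion cells, had 2.75 (edgeR adjusted p = 0.0480), although its genotype effect passed in neither tissue. It averaged 1.29 ± 0.479 CPM in Aatoe2_IL buds and 0.439 ± 0.15 CPM in WT buds (13 counts in all), and 2.24 ± 1.08 CPM in Aatoe2_IL apices and 5.16 ± 0.899 CPM in WT apices. Of the 12 fits that leave out 1 library, ACL5 kept its call in 6, DOT5 in 4 and BRL2 and FTIP1 in 3 each. AT5G25970 had the highest interaction among called genes with a name, 3.70, with 20 counts in WT buds. Its call was lost without WT apex replicate 2, WT bud replicate 2, Aatoe2_IL apex replicate 2 or 3 or Aatoe2_IL bud replicate 1, and the value was 4.41 without WT bud replicate 1.

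Further genes of this set have other roles. FBA2, a plastid fructose-bisphosphate aldolase, had an interaction of 1.52, the stomatal patterning gene TMM (TOO MANY MOUTHS) 1.61 and RNR2A, a ribonucleotide reductase subunit that serves DNA synthesis, 1.05. HAM4, a GRAS factor related to the HAIRY MERISTEM genes, had 1.75 and the transcription factor gene BZIP9 1.54. CIA2, a factor of chloroplast protein import, was the only gene of the 202 whose genotype effect passed in both tissues. It rose by 1.16 in Aatoe2_IL buds (edgeR adjusted p = 6.34e-05) and by 0.48 in Aatoe2_IL apices (0.0363), with an interaction of 0.68 (0.0424), and its interaction was called in 2 of the 12 fits that leave out 1 library. The green leaf list held 16 markers, 1 with a name, CAB1, which was not at 0 in any group. CAB1 lay between 3034 and 4641 CPM in Aatoe2_IL buds, 1690 and 1821 in WT buds, 2215 and 2996 in Aatoe2_IL apices and 1456 and 2210.2 in WT apices, and its interaction of 0.62 did not pass (edgeR adjusted p = 0.267, with the block 0.0103). The part of green tissue in these results was not tested.

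6 named genes had a genotype effect that passed in apices alone, and in each Aatoe2_IL apices were lower than WT apices. All 6 were called for a higher effect in buds, which favours a lower level in Aatoe2_IL apices, so nothing is read from the shared direction. The 1 gene of the lower set that passed in apices alone has no name and was higher in Aatoe2_IL apices. MLP28, of the major latex protein family, averaged 12.9 ± 6.47 CPM in Aatoe2_IL buds and 14.2 ± 3.42 CPM in WT buds, and 7.87 ± 0.693 CPM in Aatoe2_IL apices and 31.3 ± 7.97 CPM in WT apices (SD, n = 3 each). Its apex effect was -1.99 (edgeR adjusted p = 0.00446) and its interaction 1.84 (0.0446). The pectin methylesterase gene PMEPCRA fell by 1.81 in Aatoe2_IL apices and the auxin-related gene SAUR16 by 1.94, with interactions of 2.37 and 2.53. AACT1, an acetoacetyl-CoA thiolase of the mevalonate pathway, fell by 1.23 in apices, and the zinc finger genes ZFP3 and IDD16 fell by 1.24 and 1.15. PIN3, which encodes an auxin efflux carrier, fell by 1.56 in Aatoe2_IL apices (edgeR adjusted p = 0.0434) and did not pass the interaction (1.77, edgeR adjusted p = 0.0992, with the block 0.000927). Without Aatoe2_IL apex replicate 1 or bud replicate 2 it did pass, at 2.36 and 2.06.

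The interaction threshold was not passed by any named member of 8 further pathway lists. For heat shock genes, 0 of 11 passed in either direction and 0 with the block, with median genotype effects of 2.56 in buds and 2.37 in apices. HSFA2, a heat shock factor, averaged 175 ± 130.0 CPM in Aatoe2_IL buds and 29.8 ± 13.5 CPM in WT buds, and 191 ± 145.5 CPM in Aatoe2_IL apices and 26.4 ± 14.1 CPM in WT apices (SD, n = 3 each). Its interaction of -0.29 had an SE of 1.07, larger than its size. HSP90.1, a chaperone gene, had an interaction of 0.26 (SE 0.94). Of 10 named clock genes 0 passed, and 2 passed with the block, with a lower effect in buds. The clock genes LHY and EPR1 had interactions of -0.50 (SE 0.53) and -0.06 (SE 0.33).

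None of 7 named abscisic acid genes and none of 7 named cold and dehydration genes passed, and with the block 3 and 4 passed with a higher effect in buds and 1 and 0 with a lower one. KIN2 and LTI78, cold-induced genes of both lists, had interactions of 0.65 (edgeR adjusted p = 0.272, with the block 0.00203) and 0.90 (0.307, with the block 0.00278). Gibberellin genes gave 0 of 2, with the synthesis gene GA20OX2 at -1.10 (edgeR adjusted p = 0.317) and the breakdown gene GA2OX4 at -1.26 (0.263). Cytokinin genes gave 0 of 2, with the activating enzyme gene LOG7 at -1.37 (edgeR adjusted p = 0.106, with the block 0.0326) and the oxidase gene CKX1 at 0.15 (0.935). Auxin genes gave 0 of 2, PIN3 above and BRU6, a conjugating enzyme gene, at 0.93 (edgeR adjusted p = 0.395, with the block 0.0159). Defence genes gave 0 of 2, although WRKY40 stood at 4.88 with an SE of 1.36 (edgeR adjusted p = 0.106, with the block 0.000788) and LOX2, of jasmonate synthesis, at 2.18 (0.272, with the block 0.000286). WRKY40 lay between 3.19 without WT apex replicate 2 and 5.70 without Aatoe2_IL apex replicate 1. LOX2 lay between 1.47 without Aatoe2_IL bud replicate 1 and 3.68 without Aatoe2_IL apex replicate 1, where it passed (edgeR adjusted p = 0.0441). Over all lists 10 of 89 tested members were called higher (11.2%) and 4 lower in buds (4.49%), and 34 and 8 with the block. Of the 611 tested genes in the authors' lists, 69 were called higher (11.3%) and 17 lower (2.78%), and 217 and 66 with the block, so the lists as a whole were near that share. Of 34 named list members that did not pass, 17 moved by over 1.5-fold when some library was left out. Besides those given, these were HB53, SHP2 and VIN3, and AP1, CYP83B1, LHY, PIL1, HSP90.1 and CKX1, whose sign also changed. No member of the cell division, xylem, trichome or root lists had a name.

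Most called genes, 134 of 202, had no name. Aa_G199660h1, the unnamed gene with the smallest p in the higher set, averaged 87.3 ± 1.76 CPM in Aatoe2_IL buds and 52 ± 0.727 CPM in WT buds, and 72.2 ± 1.83 CPM in Aatoe2_IL apices and 79.2 ± 1.77 CPM in WT apices (SD, n = 3 each). Its interaction was 0.88 (edgeR adjusted p = 0.00254). Aa_G109270h1, its counterpart in the lower set, averaged 8.18 ± 0.567 CPM in Aatoe2_IL buds and 24.2 ± 2.71 CPM in WT buds, and 20.5 ± 2.53 CPM in Aatoe2_IL apices and 13.1 ± 3.5 CPM in WT apices, with an interaction of -2.20 (edgeR adjusted p = 0.00254). Both were called in each of the 12 fits that leave out 1 library. The most abundant called genes were Aa_G177700h1, with an interaction of 0.85 (edgeR adjusted p = 0.0207), and among those with a lower effect Aa_G28550h1, with -0.57 (0.0493). Of the other 12 unnamed genes picked by rule, 7 had interactions between 0.85 and 1.94 and 5 between -1.54 and -0.67.

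The authors' deposited tables, which list genes with a fold above 2 within 1 tissue, held 69 of the 149 genes (46.3%) and 17 of the 53 (32.1%). They held 3.13% of all genes tested. Per those lists, 61 of the 69 were higher in Aatoe2_IL buds and 8 lower in Aatoe2_IL apices, and all 17 were lower in Aatoe2_IL buds. The remaining 80 and 36 genes were in none of the tables. The authors made these lists on the same samples, so neither the shared genes nor their directions are independent evidence.

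The number of calls depended on single libraries. Without each library in turn it lay between 40 and 391, and 29 of the 202 genes passed every time, 77 in at least 6 of the 12 fits and 1 in none. Calls came to 61, 196 and 45 without Aatoe2_IL bud replicates 1, 2 and 3, and to 245, 45 and 118 without WT bud replicates 1, 2 and 3. They came to 195, 91 and 40 without Aatoe2_IL apex replicates 1, 2 and 3, and to 391, 42 and 40 without WT apex replicates 1, 2 and 3. Of the 84 called genes that have a name or were picked by rule, 32, 70 and 30 kept their call without Aatoe2_IL bud replicates 1, 2 and 3, and 70, 27 and 53 without WT bud replicates 1, 2 and 3. For apices, 63, 45 and 30 did so without Aatoe2_IL replicates 1, 2 and 3, and 80, 26 and 26 without WT replicates 1, 2 and 3. None of the 84 turned its direction, which their selection on the same libraries favours. Without both Aatoe2_IL replicate 1 libraries 43 genes passed, 36 of them among the 202. With the block and without those 2 libraries, a setting chosen after seeing the data, 1764 passed, 201 of them among the 202.

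**Figure D5:**
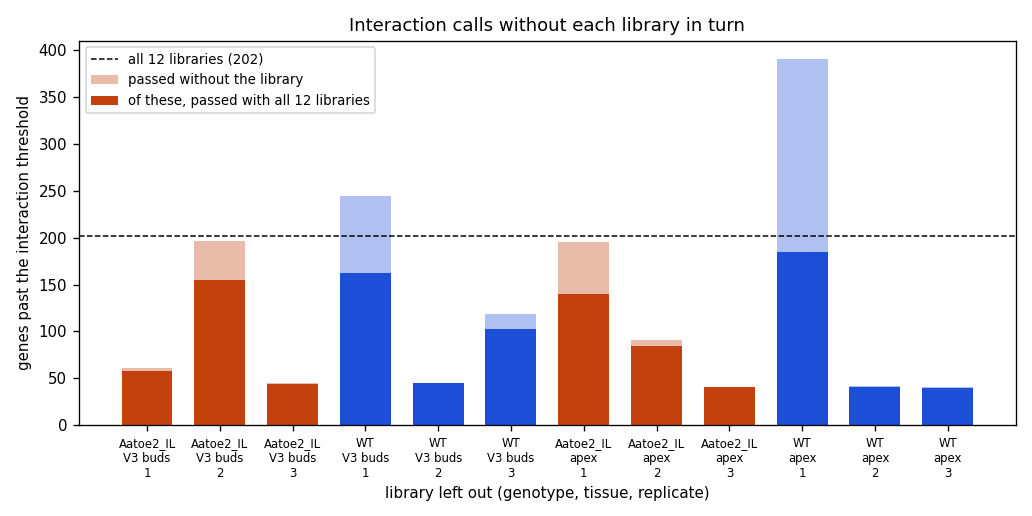
Bars give the genes past the interaction threshold (y axis from 0) when the library on the x axis was left out, in orange for Aatoe2_IL and in blue for WT, and the dark lower part gives those among the 202 genes called with all 12 libraries (dashed line). Calls fell to 40 without Aatoe2_IL apex replicate 3 or WT apex replicate 3 and reached 391 without WT apex replicate 1, of which 185 were among the 202.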

How the data were processed

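Poly(A) RNA libraries were single reads made with a strand-marking kit, per the labels' protocols. The authors deposited raw read counts per gene, and STAR, HTSeq 0.5.4p1, DESeq and DESeq2 are named without roles in the submitters' processing notes. No source used here gives the genome build, annotation or strand setting, so overlapping and antisense genes may share reads. The authors' deposited tables of changed genes give, per the file headers, group means of normalized counts as a signal, the fold as a ratio, its log2 value and an adjusted p-value, for genes with a fold above 2. All 732 of their entries matched group means recomputed from the counts with median-of-ratios size factors within 0.5%.

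The 5 counter rows were removed and library sizes summed over genes. Of 34220 genes, 9002 had no count and 19520 passed filterByExpr. Counts were fitted for the 12 libraries together with edgeR 4.0.16 in R 4.3.3 (TMM, quasi-likelihood F test, 8 residual degrees of freedom, Benjamini-Hochberg over all genes tested), and the script was tested on simulated data. The SE is the log2 value over the root of F, an approximation. Log2 CPM used a prior count of 2. Alternatives were other size factors, filters and thresholds, DESeq2 1.42.0, limma 3.58.1 voom, a covariate, replicate blocks and libraries left out.

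The members, the 24 gene lists and the rule for named genes were chosen with earlier results of these data known. The rule named, in each direction, the 8 genes with a name and the smallest p, every called list member, the 3 unnamed genes with the smallest p, the 3 of each tissue class with the smallest p and the 2 with the highest mean CPM. Of list members that did not pass, it named the 2 with the highest mean CPM per list, and PP2-A1, SWEET12, SPL3 and AP1 were added after their values were seen where they fall outside it. Of the 552 list entries, 90 distinct members had a name and 89 were tested.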

Additional observations from a re-analysis of the deposited data

Results flagged for a closer look

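In 22 named genes the effect of Aatoe2_IL differed between V3 buds and shoot apices by a test of the difference itself, the interaction term of edgeR's quasi-likelihood test. The interaction (log2, effect in buds minus effect in apices) was above 0 in 13 of them, with values of 2.37 for SUS6, 2.22 for XIP1, 2.06 for BLH2, 2.04 for SEOR1, 1.99 for SEOA, 1.96 for CNGC4 and 1.88 for SPL5. The others above 0 were ADC1 at 1.81, CLC-A at 1.72, ALDH11A3 at 1.59, EPS1 at 1.58, XTH15 at 1.41 and CRC at 1.34. In 9 genes it was below 0, with -2.62 for AT3G15240, -2.38 for KNATM, -2.18 for UFO, -1.81 for FMOGS-OX6 and -1.56 for USPL1. The remaining values were -1.49 for TPPI, -1.39 for DUF2, -1.27 for AT1G23000 and -1.21 for WRKY13. All 22 were picked from the genes past this same threshold, so their passing it is no further evidence.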

How the results depend on the processing

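Of 19520 genes, 202 passed the interaction (149 higher, 53 lower in buds), 967 the genotype effect in buds and 215 that in apices, while 2724 had an unadjusted interaction p under 0.05. With the replicate block within genotype the interaction counts were 1986 (1179 and 807). Libraries of the same number correlated at 0.24 to 0.42 in 5 of 6 cases and at 0.06 for WT replicate 2, against -0.34 to 0.14 for different numbers. The latter range is no independent baseline, since deviations cancel within a group, so it does not settle which numbers are pairs. WT replicate 2 is not shown to be a pair. The block with both Aatoe2_IL replicate 1 libraries left out gave 1764 (1008 and 756), and with both WT replicate 2 libraries left out 871 (568 and 303), settings chosen after seeing the data. Without the block and without both Aatoe2_IL replicate 1 libraries, 43 passed (34 and 9), and 835 in apices. DESeq2's Wald test gave 567 (400 and 167) and 565 in apices, and limma voom 128, 89 of them higher in buds. With the percentage of reads outside genes per library as a covariate there were 409 (291 and 118) and 2134 in buds. An adjusted p under 0.01 left 23 (16 and 7), 333 in buds and 41 in apices. No filter on low counts gave 400 in apices and 261 for the interaction. Other size factors gave 201 (DESeq2) and 154 (library totals), 10 counts in 3 libraries 205 and a block across genotypes 253. Leaving out each library in turn gave between 40 and 391 interaction genes, 26 to 269 higher, 11 to 122 lower, 410 to 1044 in buds and 35 to 698 in apices. The genotype effect passed in buds alone in 80.2% of the 202 genes and in between 58.6% and 100% of the genes called in any other setting that tests it. Over 84 called genes and all alternatives, 1465 values kept their call, 635 lost it and 0 turned their direction. The 84 were picked for passing on the same libraries, which favours an unchanged direction. The cause of the shifts between settings was not tested. Genes with few reads in WT buds have interactions of uncertain size. Among them AP1, AGL6, DOT5, SPL3, AT5G25970, CNGC3 and SUS6 held 2, 3, 4, 20, 20, 24 and 31 counts there.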
